A study of Mus musculus with 20 samples.

Results

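The interferon response genes are a set of 49 listed mouse genes that interferons induce or that carry the interferon signal. They were followed over 5 tissues and 4 diets on 20 one-colour arrays, and 47 of the 49 were matched to a probe through a RefSeq accession, out of 21154 genes named on the array. Mx1 and Mx2 were not matched and were not analysed here. The rule that lists the members uses no measured value, but the set was chosen with earlier results of these data known. The animals were male C57BL/6J mice, 5 weeks old when the 13 weeks of feeding began. HFD+PP mice ate a high fat diet (60% of kcal from fat) containing porphyran at 2% w/w, porphyran being the sulfated galactan of the red seaweed nori. HFD+Ex mice ate that high fat diet containing nori extract at 2% w/w. HFD mice ate the high fat diet without a supplement, and CD mice ate a control diet (10% of kcal from fat). Liver, mesenteric fat, brown fat, ileum and colon were taken. RNA of the 7 mice of a diet was pooled within each tissue, so each tissue and diet was 1 array. A diet's 5 tissue arrays share their 7 animals and do not replicate each other. Because every group is 1 array, no difference has a replicate check, and none was tested or given a p-value. Each comparison set against the HFD array of a tissue shares that array with the others in the tissue.

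Interferons are secreted signals of antiviral and antibacterial defence. Type I and type III interferons switch genes on through interferon-stimulated response elements in DNA, and interferon-gamma, made mainly by T and NK cells, does so through gamma-activated sites. In the gut, interferon-gamma from lymphocytes and interferon-lambda acting on the epithelium both induce such genes, and in fat and liver they are read mainly in immune cells, hepatocytes and endothelium.

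The promoter windows of the members were searched for the core letters of both elements on both strands. The response element core was taken as GAAA followed by any 2 bases and GAAA again (on the other strand TTTC, any 2 bases, TTTC), and the gamma-activated site core as TTCNNNGAA, which reads the same on both strands. A RefSeq window of 300 bases, 250 before and 50 after the annotated start in build GRCm38.p6, was held for 36 of the 47 members, in 41 windows. Nlrc5, Usp18, Zbp1, Oas2, Ifi27, Parp14, Iigp1, Gbp4, Gbp6, Tap2 and Ido1 had no entry. The response element core was present in 18 of the 41 windows (43.9%), against 3.44% of all 32851 windows in the table. The gamma-activated site core was present in 11 (26.8%), against 8.3% of all windows, and both were present in 6 (14.6%), against 0.454% of all windows. Matches may overlap, and a match is a description of letters, not a site shown to be bound. Of the 16 members that were higher in colon on HFD+PP than on HFD, 11 had a window, and 7 of these held the response element core. Among all 36 members with a window, 18 held it, a share not far from that of the 11. The gamma-activated site core was held by 3 of the 11, and both cores by 3. The windows printed here belong to 6 members that hold the response element core and changed in these tissues. Socs1 and Oas3 were lower on HFD in mesenteric fat. Tgtp1 and Oas3 moved in both mesenteric fat and colon, and Igtp, Gbp2 and Isg15 were higher with porphyran in colon. The windows are written 5′ to 3′ on the strand of the gene, and capitals mark the matches.
Socs1, chr16:10785487-10785786, minus strand: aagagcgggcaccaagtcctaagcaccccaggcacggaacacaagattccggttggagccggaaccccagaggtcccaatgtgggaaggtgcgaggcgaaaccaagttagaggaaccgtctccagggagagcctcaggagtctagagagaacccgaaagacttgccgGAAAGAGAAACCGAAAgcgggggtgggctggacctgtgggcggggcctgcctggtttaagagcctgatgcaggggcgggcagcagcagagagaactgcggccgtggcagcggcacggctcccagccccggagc
Oas3, chr5:120777610-120777909, minus strand: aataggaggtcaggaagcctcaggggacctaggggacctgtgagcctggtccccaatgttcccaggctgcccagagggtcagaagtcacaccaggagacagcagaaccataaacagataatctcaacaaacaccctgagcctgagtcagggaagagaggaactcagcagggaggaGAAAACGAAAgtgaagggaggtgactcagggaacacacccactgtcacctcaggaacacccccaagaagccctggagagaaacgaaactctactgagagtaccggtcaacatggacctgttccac
Tgtp1, chr11:48992197-48992496, minus strand: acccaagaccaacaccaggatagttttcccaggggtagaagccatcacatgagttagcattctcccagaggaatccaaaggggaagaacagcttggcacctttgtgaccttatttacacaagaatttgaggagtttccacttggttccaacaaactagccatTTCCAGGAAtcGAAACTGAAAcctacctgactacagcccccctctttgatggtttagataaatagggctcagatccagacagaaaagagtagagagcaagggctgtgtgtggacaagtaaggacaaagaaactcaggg
Igtp, chr11:58199306-58199605, plus strand: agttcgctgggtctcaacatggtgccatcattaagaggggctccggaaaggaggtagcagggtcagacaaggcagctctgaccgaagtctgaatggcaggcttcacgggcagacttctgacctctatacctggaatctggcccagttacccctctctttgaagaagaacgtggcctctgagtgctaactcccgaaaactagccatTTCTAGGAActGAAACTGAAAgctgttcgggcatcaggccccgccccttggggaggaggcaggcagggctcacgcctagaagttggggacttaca
Gbp2, chr3:142620413-142620712, plus strand: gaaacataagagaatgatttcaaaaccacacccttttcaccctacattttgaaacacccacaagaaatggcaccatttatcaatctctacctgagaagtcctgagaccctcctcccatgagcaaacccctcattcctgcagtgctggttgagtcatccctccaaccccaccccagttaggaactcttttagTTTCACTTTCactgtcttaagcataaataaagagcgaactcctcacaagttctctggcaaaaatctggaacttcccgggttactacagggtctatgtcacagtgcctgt
Isg15, chr4:156200769-156201068, minus strand: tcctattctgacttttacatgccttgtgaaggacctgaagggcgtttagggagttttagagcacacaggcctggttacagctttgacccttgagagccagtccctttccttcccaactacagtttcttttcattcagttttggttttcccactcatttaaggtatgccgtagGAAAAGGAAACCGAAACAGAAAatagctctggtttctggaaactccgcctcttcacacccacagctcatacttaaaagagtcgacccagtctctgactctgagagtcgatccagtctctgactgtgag
In the Socs1 window, GAAAGAGAAA and GAAACCGAAA overlapped between positions −83 and −68 from the start. The Isg15 window held 3 overlapping matches in a run from −78 to −57. In the windows of Igtp and Tgtp1 a gamma-activated site core stood just upstream of the response element core, at −45 to −37 and −34 to −25 in Igtp and at −88 to −80 and −77 to −68 in Tgtp1. The Gbp2 match, TTTCACTTTC, lay on the other strand, at −59 to −50.

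No array had a saturated spot, and the share of spots well above background was 50.7% to 67.9%. A level is given here as the log2 signal minus the 75th percentile of log2 signals on that array, so that 0 is a bright probe. Levels of different genes depend on their probes and are not compared. Of the 47 members, 43 were well above background on all 20 arrays. The exceptions were Ifnlr1 (17 arrays), Oas3 (14), Tgtp1 (11) and Ido1 (11). A gene counted as measured if either array of a pair read it well above background, and was called higher or lower at a difference of at least 1 log2, which is 2-fold. Where it was dim on 1 array, the difference is a bound against that array's floor, and is written "at least". Replicate spots within arrays give a technical SD of 0.091 log2 for a difference, in which no difference between mice or pools is included. It was taken from probes printed many times whose spots were all well above background, and does not cover dim probes. Markers placed the arrays in their tissues for liver (6 of 6 hepatocyte markers highest in liver), brown fat (5 of 6), ileum (5 of 6) and colon (4 of 6, without Aqp8 and Prdx6b). In mesenteric fat only 2 of 6 white fat markers were highest there, and the levels of Adipoq, Plin1, Lep and Cfd overlapped with those in brown fat or lay below them. In whole tissue, fewer cells of a type and less RNA per cell cannot be told apart.

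Of the 15 comparisons, 2 held more than 3 members past 1 log2. In colon, 16 of 47 members were higher on HFD+PP than on HFD (1.71% of all genes measured) and none was lower. In mesenteric fat, 12 of 47 were lower on HFD than on CD (8.46% of all genes) and 1 was higher (8.88%). In the other 13 comparisons, at most 3 members passed 1 log2 in either direction. Over all 15 comparisons, 24 of 47 members never passed it, against 68.8% of 18908 genes measured in any of them, and 9 passed it in 1 comparison (15.4% of genes). Ubd passed it in 10, and 0.0317% of genes passed it in 10 or more.

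**Figure D1:**
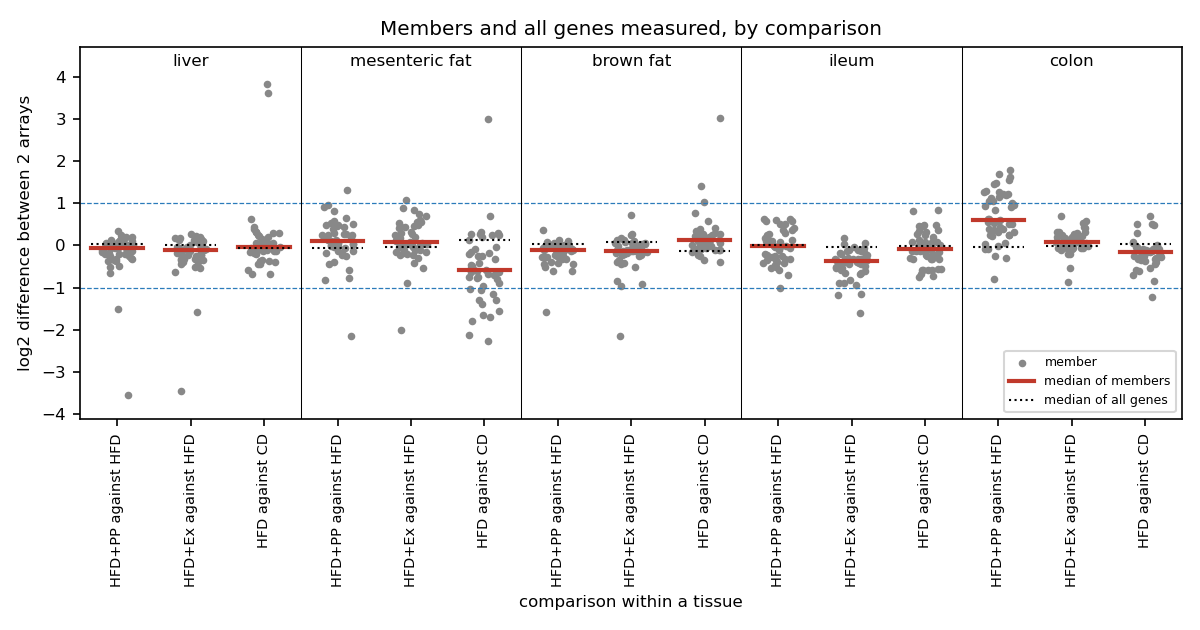
Log2 difference of each member (grey points, y axis) in each of the 15 comparisons (x axis, grouped by tissue), with the median of the members (red line) and of all genes measured (dotted line). Dashed lines mark 1 log2 either way. The median of the members stands at 0.61 in colon on HFD+PP against HFD and at −0.59 in mesenteric fat on HFD against CD, and within 0.37 of 0 elsewhere.

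In colon, 4 of 6 immunity-related GTPases, 2 of 5 guanylate-binding proteins and 5 of 11 antiviral effectors were higher on HFD+PP than on HFD. The 16 members higher on HFD+PP than on HFD compare with 1.71% of all genes measured in colon (1.11% lower), and their median over all 47 was 0.61 log2, against −0.03 for all genes. Of the 47, 41 lay above 0. The members just inside the threshold were Tap1 and Nlrc5, each at 1.06, and those just outside were Irgm1, which rounds to 1.0 and fell short of it, Iigp1 (0.95) and Socs1 (0.94). With normexp background correction in place of the scanner's own subtraction, 8 members were higher and the median was 0.51.

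Igtp, an immunity-related GTPase that acts on the vacuoles of intracellular microbes, had a colon level of 3.08 on HFD+PP, 1.24 on HFD+Ex, 1.30 on HFD and 1.42 on CD. Gbp2, a guanylate-binding protein of the same defence, had 3.34 on HFD+PP, 1.91 on HFD+Ex, 1.77 on HFD and 1.89 on CD. For both genes the HFD+PP array stood alone and the other 3 arrays lay within 0.2 log2 of each other. On HFD+PP against HFD, Igtp was 3.43-fold and Gbp2 2.96-fold higher. Zbp1, a sensor of Z-form nucleic acids that can start cell death, read 1.97 on HFD+PP, 0.69 on HFD+Ex, 0.27 on HFD and 1.5 on CD. Its CD array was the next highest, and it was the only member called lower on HFD than on CD in colon (−1.23). Oas3, an oligoadenylate synthetase that activates RNase L, had −3.31 on HFD+PP, −4.61 on HFD+Ex, −4.93 on HFD and −4.1 on CD. Oas2, of the same enzyme family, had −0.62 on HFD+PP, −1.90 on HFD+Ex, −2.09 on HFD and −1.79 on CD. HFD+PP was the highest of the 4 colon arrays for both synthetases, and for Oas3 it exceeded CD by less than it exceeded HFD. Isg15, a ubiquitin-like protein that is attached to other proteins in the antiviral state, read 2.95 on HFD+PP, 2.12 on HFD+Ex, 1.67 on HFD and 2.26 on CD.

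**Figure D2:**
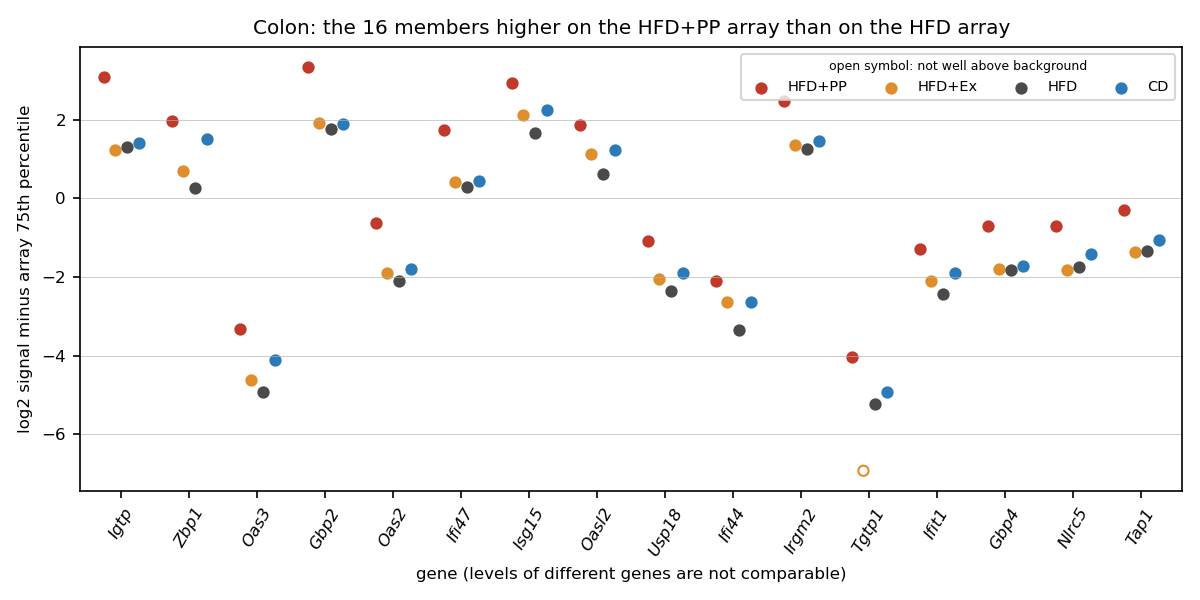
Level in colon (y axis, log2 signal minus the 75th percentile of the array) of the 16 members higher on HFD+PP than on HFD (x axis), 1 point for each diet and an open point where the probe was not well above background. The HFD+PP point is the highest for all 16, and the other 3 diets lie close together for Igtp, Gbp2 and Irgm2.

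Of 6 immunity-related GTPases, 4 were higher (Igtp 1.78, Ifi47 1.45, Irgm2 1.22 and Tgtp1 1.19), all 6 lay between 0.95 and 1.78, and their median was 1.20. Of 5 guanylate-binding proteins, Gbp2 (1.56) and Gbp4 (1.12) were higher and the median was 0.91. Of 11 antiviral effectors, 5 were higher (Oas3 1.62, Oas2 1.48, Isg15 1.28, Oasl2 1.26 and Ifit1, which binds foreign RNA ends, 1.16), with a median of 0.61 and a lowest value of −0.24 for Oasl1. Usp18, which strips Isg15 from proteins and damps the type I receptor, was higher by 1.26 and Ifi44 by 1.23. Nlrc5, the transactivator of MHC class I genes, was higher by 1.06, as was Tap1, the peptide transporter of that pathway. The other class I members were less different: Psmb9 0.55, Psmb10 0.24, Tap2 0.05 and Psmb8 −0.02. The 2 receptor chains, Ifnlr1 for interferon-lambda and Ifngr1 for interferon-gamma, both differed by −0.08. Ubd, a ubiquitin-like modifier induced by interferon-gamma and TNF, was the member with the lowest value, at −0.79.

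Set against every other colon array rather than HFD alone, a comparison chosen after the data were seen, 6 members were at least 1 log2 higher on HFD+PP than on each of HFD+Ex, HFD and CD. They were Oas2, Ifi47, Igtp, Irgm2, Gbp2 and Gbp4, against 0.618% of all genes, and normexp left 3 such members and the authors' scaled values 4. HFD+PP was the highest of the 4 colon arrays for 37 of 47 members, against 31.8% of all genes. The 10 others were Irf7, Ifnlr1, Ifngr1, Ifih1, Oasl1, Ifi27, Xaf1, Psmb8, Tap2 and Ubd. On HFD+Ex against HFD in colon, no member passed 1 log2 either way (1.12% of all genes were higher and 0.402% lower), and the median was 0.09. On HFD against CD, Zbp1 alone passed it (0.45% of all genes were higher and 1.7% lower). The median was −0.15, against 0.03 for all genes, and 39 of 47 lay below 0.

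Some members have a second probe, which can be set against the probe used. The second probe of Zbp1 was higher by 2.07 on HFD+PP against HFD and that of Isg15 by 1.46. The second probe of Nlrc5 differed by −0.29, against 1.06 for the probe used. The second probes of Irgm1 (1.05), Iigp1 (2.86) and Gbp6 (1.78) passed 1 log2 where the probe used did not (1.0, 0.95 and 0.32). Tgtp1, Iigp1, Gbp6, Ifit3 and Oas1a have near-identical relatives in the mouse genome, and their probes may also read those.

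Other genes of the pathway, none of them members, were read on the same colon arrays. Ifng, interferon-gamma itself, was well above background on HFD+PP alone among the 4 colon arrays, at a level of −4.06, and was at least 4.03-fold higher than on HFD. Cxcl9, a chemokine that interferon-gamma induces, had −1.38 on HFD+PP, −4.12 on HFD+Ex, −3.10 on HFD and −3.25 on CD. The related Cxcl10 had 1.13 on HFD+PP, −1.41 on HFD+Ex, −0.98 on HFD and −0.93 on CD. On both chemokines the HFD+PP array stood above the other 3. Socs3, a feedback inhibitor of cytokine receptors, was higher by 2.02 on HFD+PP against HFD and was the only one of 16 other receptor and signalling genes to pass 1 log2. Of 35 measured genes in a list of other interferon-induced genes, 3 were higher (Cxcl9, Cxcl10 and Herc6, at 1.06) and none lower, with a median of 0.30. None of 10 MHC class I genes and none of 13 sensors and adaptors passed it. Ifnb1, interferon-beta, was not well above background on any colon array.

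On HFD+PP against HFD in colon, none of 16 T and NK cell markers, 12 B and plasma cell markers and 12 macrophage markers passed 1 log2, with medians of 0.13, 0.37 and −0.21. None of 7 measured lipid-associated macrophage markers did either (median −0.78), and 1 of 5 colonic epithelium markers was higher (0.26). The summed T and NK cell signal, as a multiple of the 75th percentile, was 18.7 on HFD+PP, 16.6 on HFD+Ex, 17.5 on HFD and 17.5 on CD. The colonic epithelium sum was 346 on HFD+PP, 321 on HFD+Ex, 274 on HFD and 325 on CD. Of 12 exocrine pancreas markers, 6 were higher on HFD+PP than on HFD and 6 were higher on HFD+Ex than on HFD. The exocrine pancreas sum ran otherwise, with 26.4 on HFD+PP, the lowest, 39.2 on HFD+Ex, 40.7 on HFD and 35.3 on CD. Of 5 ileal epithelium markers measured, 2 were higher on HFD+PP. The ileal epithelium sum in colon was 36.9 on HFD+PP, 13.3 on HFD+Ex, 14.2 on HFD and 18.3 on CD. The part of these markers in the result was not tested.

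In mesenteric fat, both brakes on the response, 3 of 5 class I supply genes and 2 of 6 signalling and transcription factors were lower on HFD than on CD, and Ubd was higher. On HFD against CD, 12 of 47 members were lower and 1 was higher, beside 8.46% of all genes lower and 8.88% higher. The median of the members was −0.59, against 0.12 for all genes, and 37 of 47 lay below 0. The 12 were Oas3, Socs1, Usp18, Nlrc5, Ifi47, Irf8, Tap1, Ifnlr1, Psmb9, Gbp4, Psmb8 and Tgtp1, between −2.25 and −1.03.

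Oas3 had a mesenteric fat level of −4.95 on HFD+PP, −4.70 on HFD+Ex, −5.15 on HFD and −2.91 on CD. Socs1, which blocks the JAK kinases behind interferon receptors, had −0.04 on HFD+PP, −0.28 on HFD+Ex, −1.36 on HFD and 0.76 on CD. Oas3 stayed low on all 3 high fat arrays, while Socs1 was lowest on HFD and between HFD and CD with either supplement. Usp18 had −0.07 on HFD+PP, 0.14 on HFD+Ex, −0.61 on HFD and 1.17 on CD. Nlrc5 had 2.27 on HFD+PP, 2.15 on HFD+Ex, 1.31 on HFD and 3.0 on CD. Irf8, a transcription factor of B cells, dendritic cells and macrophages, had 4.15 on HFD+PP, 4.12 on HFD+Ex, 3.24 on HFD and 4.79 on CD. These 3 genes shared an order, with CD highest, HFD lowest and both supplemented arrays between them. Psmb8, a subunit of the immunoproteasome, had 3.50 on HFD+PP, 3.47 on HFD+Ex, 3.05 on HFD and 4.09 on CD.

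By role, both brakes on the response (Socs1 and Usp18) were lower on HFD than on CD, as were 3 of 5 class I supply genes (Tap1 −1.38, Psmb9 −1.29 and Psmb8 −1.05). All 6 signalling and transcription factors lay below 0, with Nlrc5 (−1.70) and Irf8 (−1.56) past 1 log2 and a median of −0.92. Of 6 immunity-related GTPases, Ifi47 (−1.65) and Tgtp1 (−1.03) were lower. The antiviral effectors differed less, with 1 of 11 lower (Oas3) and a median of −0.26. Igtp differed by −0.80, Isg15 by −0.78, Irf7 by −0.89 and Gbp2 by 0.27. The second probe of Nlrc5 gave −1.21. That of Zbp1 gave −1.86, where the probe used gave −0.68 and was not called.

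With either supplement, 1 member was higher and 1 lower than on HFD in mesenteric fat. Socs1 was higher by 1.32 on HFD+PP and by 1.07 on HFD+Ex, and Ubd differed by −2.14 on HFD+PP and by −1.99 on HFD+Ex. Among all genes, 4.69% were higher and 4.22% lower on HFD+PP, and 3.64% were higher and 3.78% lower on HFD+Ex. The members' medians were 0.10 and 0.09. On HFD+Ex no member was higher under normexp, and quantile normalization gave 3 higher on HFD+PP and 2 on HFD+Ex. The authors' scaled values gave 2 higher on HFD+PP. Below the threshold, Nlrc5 differed from HFD by 0.96 on HFD+PP and 0.84 on HFD+Ex, Irf8 by 0.92 and 0.88, Ifi47 by 0.81 and 0.61, and Tap1 by 0.66 and 0.54, in the same order of diets. Oas1a ran the other way, with −0.81 on HFD+PP and −0.88 on HFD+Ex. In this tissue the HFD+PP and HFD+Ex arrays lay together on 1 slide and the HFD and CD arrays on another. Slide and supplement cannot be told apart there.

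**Figure D3:**
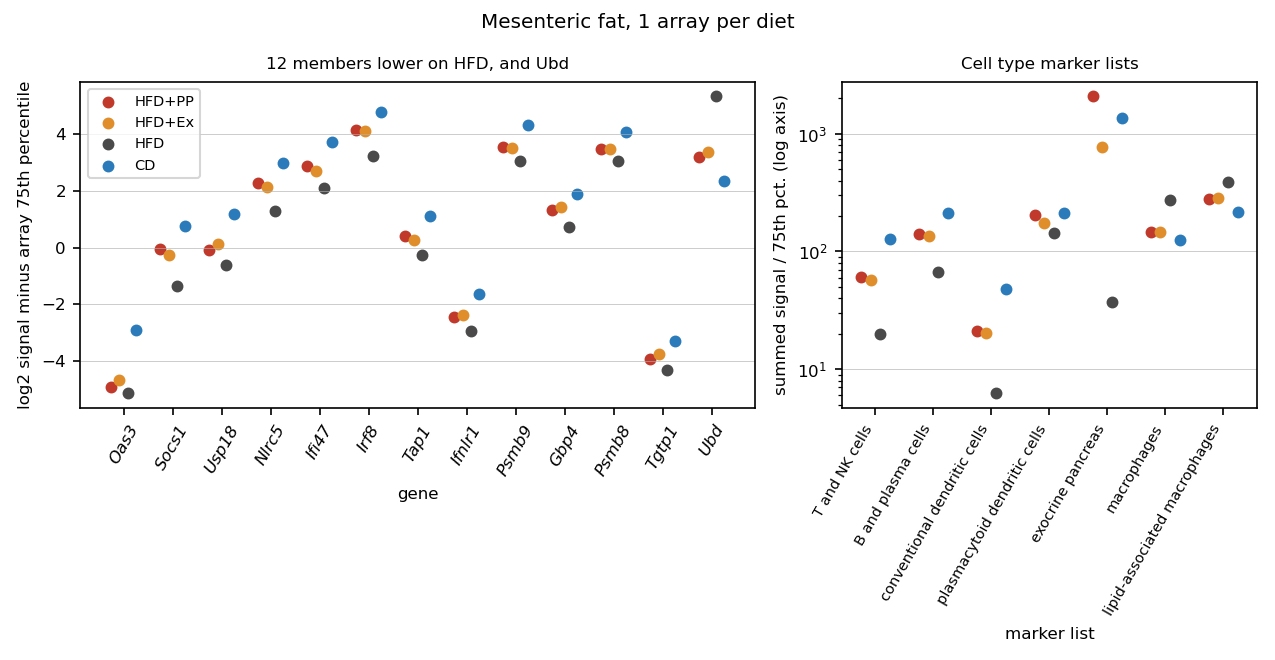
Mesenteric fat, 1 point for each diet. The left panel gives the level (y axis, log2 signal minus the 75th percentile) of the 12 members lower on HFD than on CD and of Ubd, and the right panel the summed signal of marker lists (y axis, log scale, multiple of the 75th percentile). HFD is the lowest point for the 12 members and for the T and NK cell list (19.8, against 127 on CD), and the highest for Ubd and for the macrophage list (276, against 126 on CD).

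Markers of lymphocytes and pancreas ran in the direction of these members on HFD against CD, and those of macrophages and ileal epithelium in the opposite direction. With HFD set against CD, 14 of 16 T and NK cell markers were lower (median −2.91), 11 of 12 B and plasma cell markers (−3.42), 4 of 7 conventional dendritic cell markers measured (−2.35) and 12 of 12 exocrine pancreas markers (−5.81). Of 12 macrophage markers, 9 were higher (median 1.24), as were 7 of 8 lipid-associated macrophage markers (3.80) and 5 of 6 ileal epithelium markers (3.69). The summed T and NK cell signal was 60.2 on HFD+PP, 57.0 on HFD+Ex, 19.8 on HFD and 127 on CD. The B and plasma cell sum was 141 on HFD+PP, 136 on HFD+Ex, 66.6 on HFD and 214 on CD. The pancreas sum was 2080 on HFD+PP, 772 on HFD+Ex, 37.2 on HFD and 1370 on CD. The ileal epithelium sum was 23.1 on HFD+PP, 5.41 on HFD+Ex, 31.8 on HFD and 6.33 on CD. The macrophage sum was 147 on HFD+PP, 146 on HFD+Ex, 276 on HFD and 126 on CD. HFD was lowest on the lymphocyte and pancreas sums, and highest on the macrophage and ileal epithelium sums. All 16 T and NK cell markers were well above background on each array. The part of these cells and tissues in the result was not tested.

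Some other pathway genes were lower on HFD than on CD in mesenteric fat as well, beside 8.46% of all genes lower and 8.88% higher. Ifng had a level of −3.58 on HFD+PP, −3.75 on HFD+Ex, −4.91 on HFD and −2.79 on CD, with HFD the lowest. Of 35 other interferon-induced genes measured, 9 were lower and none higher, among them Gbp8 (−3.20), Ciita (−1.73), the transactivator of MHC class II genes, Trim34a (−1.51) and Slfn8 (−1.42). Of 16 other receptor and signalling genes, 3 were lower and none higher (median −0.28), among them Socs3 (−1.72) and Ptpn6 (−1.79). Of 14 sensors and adaptors, 2 were lower and 1 higher, and the median was 0.05. Sting1 (−1.33) and Aim2 (−1.53), adaptor and sensor for cytosolic DNA, were lower, and Tlr8 was at least 1.81 log2 higher. Among 10 MHC class I genes 1 was lower (median −0.13), and among 11 interferon ligands measured 1 was lower (median 0.08). Cxcl9 differed by −0.03.

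Ubd changed in more comparisons than any other member, and in liver and both fats it ran in 1 pattern. In liver it had a level of −0.43 on HFD+PP, −0.49 on HFD+Ex, 1.07 on HFD and −2.76 on CD. In mesenteric fat it had 3.21 on HFD+PP, 3.37 on HFD+Ex, 5.35 on HFD and 2.35 on CD. In brown fat it had −0.69 on HFD+PP, −1.26 on HFD+Ex, 0.89 on HFD and −2.13 on CD. In these 3 tissues HFD was the highest array, CD the lowest, and both supplemented arrays stood between them. Set against CD, HFD had Ubd 14.3-fold higher in liver, 8.01-fold in mesenteric fat and 8.10-fold in brown fat. On HFD+PP against HFD it was 2.83-fold lower in liver, 4.41-fold in mesenteric fat and 3.0-fold in brown fat, and on HFD+Ex against HFD 2.96-fold, 3.97-fold and 4.44-fold lower in the same tissues. The gut differed: in ileum Ubd had 1.74 on HFD+PP, −0.02 on HFD+Ex, 1.15 on HFD and 1.36 on CD, and in colon 0.23 on HFD+PP, 0.15 on HFD+Ex, 1.02 on HFD and 0.50 on CD. In ileum HFD+Ex was the low array and passed 1 log2 against HFD (−1.18), while in colon no pair did. By counts and medians, markers of lipid-associated macrophages ran in the direction of Ubd in liver and both fats. In their sum, HFD was highest and CD lowest in mesenteric fat alone. The liver sum was 21.8 on HFD+PP, 23.7 on HFD+Ex, 29.2 on HFD and 28.3 on CD. The brown fat sum was 361 on HFD+PP, 348 on HFD+Ex, 315 on HFD and 368 on CD. Of the 8 markers, with HFD set against CD, 5 were higher in liver (median 1.55), 7 in mesenteric fat (3.80) and 5 in brown fat (3.27). On HFD+PP against HFD, 3 of 8 were lower in liver (−0.72), 7 of 8 in mesenteric fat (−2.91) and 1 of 8 in brown fat (−0.60). On HFD+Ex against HFD, 4 of 8 were lower in liver (−0.89), 6 of 8 in mesenteric fat (−2.13) and 5 of 8 in brown fat (−1.75). The part of these cells in the Ubd levels was not tested.

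**Figure D4:**
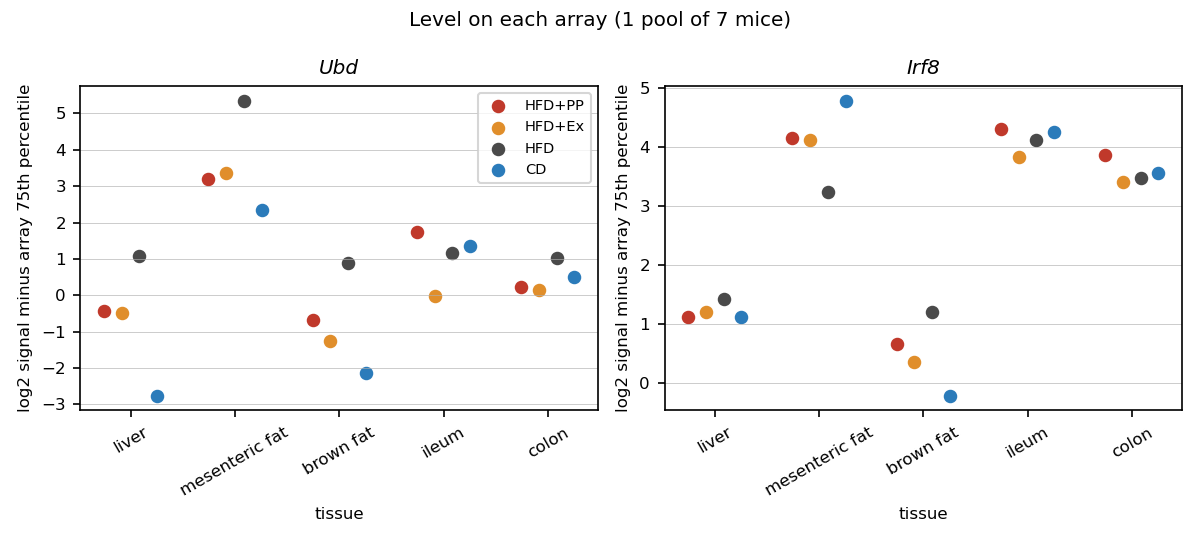
Level on each array (y axis, log2 signal minus the 75th percentile of the array) of Ubd (left) and Irf8 (right) by tissue (x axis), 1 point for each diet. Ubd is highest on HFD and lowest on CD in liver, mesenteric fat and brown fat. Irf8 is lowest on HFD in mesenteric fat (3.24) and highest on HFD in brown fat (1.20).

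In brown fat, the members other than Ubd differed little. On HFD against CD, 3 of 44 measured were higher (Ubd, Irf8 and Oas2) and none lower, beside 6.27% of all genes higher and 3.08% lower. Irf8 had a brown fat level of 0.67 on HFD+PP, 0.35 on HFD+Ex, 1.20 on HFD and −0.21 on CD, and was 2.65-fold higher on HFD than on CD. Oas2 had 0.25 on HFD+PP, −0.10 on HFD+Ex, 0.85 on HFD and −0.18 on CD. Both were highest on HFD and lowest on CD. The second probe of Oas1a was higher by 1.28 on HFD than on CD, where the probe used gave 0.76 and was not called. The members' median was 0.12, against −0.13 for all genes. The deposited scaling of the authors moved the median of all genes by 0.28 and that of the members to 0.40, and quantile normalization moved that of all genes by 0.13 and that of the members to 0.21. Against HFD, Ubd alone was lower on HFD+PP (1.51% of all genes higher, 2.18% lower) and on HFD+Ex (0.846% higher, 3.31% lower). With the authors' scaled values 3 members were lower on HFD+Ex. On HFD+PP 39 of 44 members lay below 0, with a median of −0.11, against 0.03 for all genes. The HFD+Ex array lay on another slide than HFD. Of 12 macrophage markers, 10 were higher on HFD than on CD (median 1.54), and their sum was 61.8 on HFD+PP, 44.5 on HFD+Ex, 92.6 on HFD and 32 on CD. Hepatocyte markers moved on the same array, with 5 of 6 higher on HFD than on CD (median 3.02) and 5 of 6 lower on each supplement than on HFD, while their sum was 16.4 on HFD+PP, 14.7 on HFD+Ex, 16.7 on HFD and 16.9 on CD. The part of these cells in the differences was not tested. Irf5, a factor of macrophage activation, was higher by 2.10, and Ifnb1 was well above background on the HFD array alone of the 20, at −3.42.

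In liver, 44 of 46 measured members stayed within 1 log2 on HFD against CD. Ubd and Ifnlr1 were higher, beside 3.45% of all genes higher and 1.35% lower. Both were lower on HFD+PP than on HFD (0.579% of all genes higher, 1.54% lower) and on HFD+Ex than on HFD (1.43% higher, 1.63% lower). Ifnlr1, which confines the interferon-lambda response mainly to epithelia, read −5.04 on HFD+PP, −5.22 on HFD+Ex, −1.5 on HFD and −6.90 on CD, and only the HFD value was well above background. It was at least 12.1-fold higher on HFD than on CD, at least 11.7-fold lower on HFD+PP than on HFD and at least 10.8-fold lower on HFD+Ex than on HFD. All 3 bounds rest on the HFD array alone. Markers of other tissues moved on that array too. On HFD against CD, 3 of 3 measured white fat markers were higher (median 1.32), as were 5 of 6 mesothelial markers (1.35) and 4 of 7 smooth muscle markers (1.18). On HFD+PP against HFD, 2 of 4 white fat, 2 of 6 mesothelial and 2 of 7 smooth muscle markers were lower, and on HFD+Ex 2 of 3, 2 of 6 and 4 of 7. Hepatocyte markers had a median of −0.05 on HFD against CD, and none passed 1 log2. The part of these cells in the liver values was not tested. The largest other differences on HFD against CD were Bst2 (tetherin, which holds budding virus at the cell surface) and Ifi27, at −0.67 each, Gbp2 at 0.62 and Irf7, which amplifies interferon production, at −0.58. The members' medians were −0.04 on HFD against CD, −0.06 on HFD+PP against HFD and −0.10 on HFD+Ex against HFD. Of the pathway lists, 1 gene passed 1 log2 in liver, Cxcl10, which was higher by 1.28 on HFD than on CD.

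In ileum, on HFD+Ex against HFD, 44 of 47 members lay below 0, and the median was −0.37, against −0.03 for all genes. The 3 lower members were Ido1 (−1.60), Ubd (−1.18) and Zbp1 (−1.16, and −0.90 on its second probe), beside 0.695% of all genes lower and 1.16% higher. Ido1, which degrades tryptophan, had an ileum level of −1.31 on HFD+PP, −1.91 on HFD+Ex, −0.30 on HFD and −1.13 on CD. Zbp1 had 1.80 on HFD+PP, 0.14 on HFD+Ex, 1.30 on HFD and 2.03 on CD. HFD was the highest array for Ido1, and HFD+Ex the lowest for both. All 11 antiviral effectors lay below 0 on HFD+Ex (median −0.49), down to −0.94 for Ifit1, as did all 6 signalling factors and all 5 class I supply genes. For the antiviral effectors this was not particular to ileum. On HFD+Ex against HFD, all 11 in liver (median −0.38) and all 10 measured in brown fat (−0.31) lay below 0. In mesenteric fat 8 of 11 did, and in colon 2 of 11.

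On HFD+PP against HFD in ileum, Ido1 alone was lower (−1.01, short of 1 log2 under normexp and with the authors' scaled values) and none was higher, beside 0.939% of all genes lower and 1.97% higher, and the median was −0.01. Other differences lay below the threshold. All 5 guanylate-binding proteins lay above 0 (median 0.37, with Gbp4 at 0.63 and Gbp2 at 0.60), and so did 5 of 6 immunity-related GTPases (median 0.20, with Irgm2 at 0.59 and Igtp at 0.50). Of 11 antiviral effectors 9 lay below 0 (median −0.35, with Rsad2, which makes a chain-terminating nucleotide, at −0.69). On HFD against CD no member passed 1 log2 (1.57% of all genes higher, 2.33% lower), and the median was −0.09. The second probe of Iigp1 did pass it, at −1.05 on HFD against CD and 1.06 on HFD+PP against HFD. The probe used for Iigp1 gave −0.30 and 0.29. Ifng had an ileum level of −3.30 on HFD+PP, −5.59 on HFD+Ex (a dim value, under the background criterion), −4.40 on HFD and −3.75 on CD. Cxcl9 had 0.05 on HFD+PP, −1.18 on HFD+Ex, −1.11 on HFD and −0.09 on CD. For both, HFD+PP was the highest of the 4 ileum arrays. The summed T and NK cell signal was 43.1 on HFD+PP, 33.9 on HFD+Ex, 44.1 on HFD and 40.7 on CD, and the B and plasma cell sum 214 on HFD+PP, 173 on HFD+Ex, 170 on HFD and 245 on CD. White fat markers ran high on some ileum arrays, with a sum of 17.3 on HFD+PP, 6.06 on HFD+Ex, 3.0 on HFD and 33 on CD, and 6 of 6 were higher on HFD+PP than on HFD. The part of these cells was not tested.

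**Figure D5:**
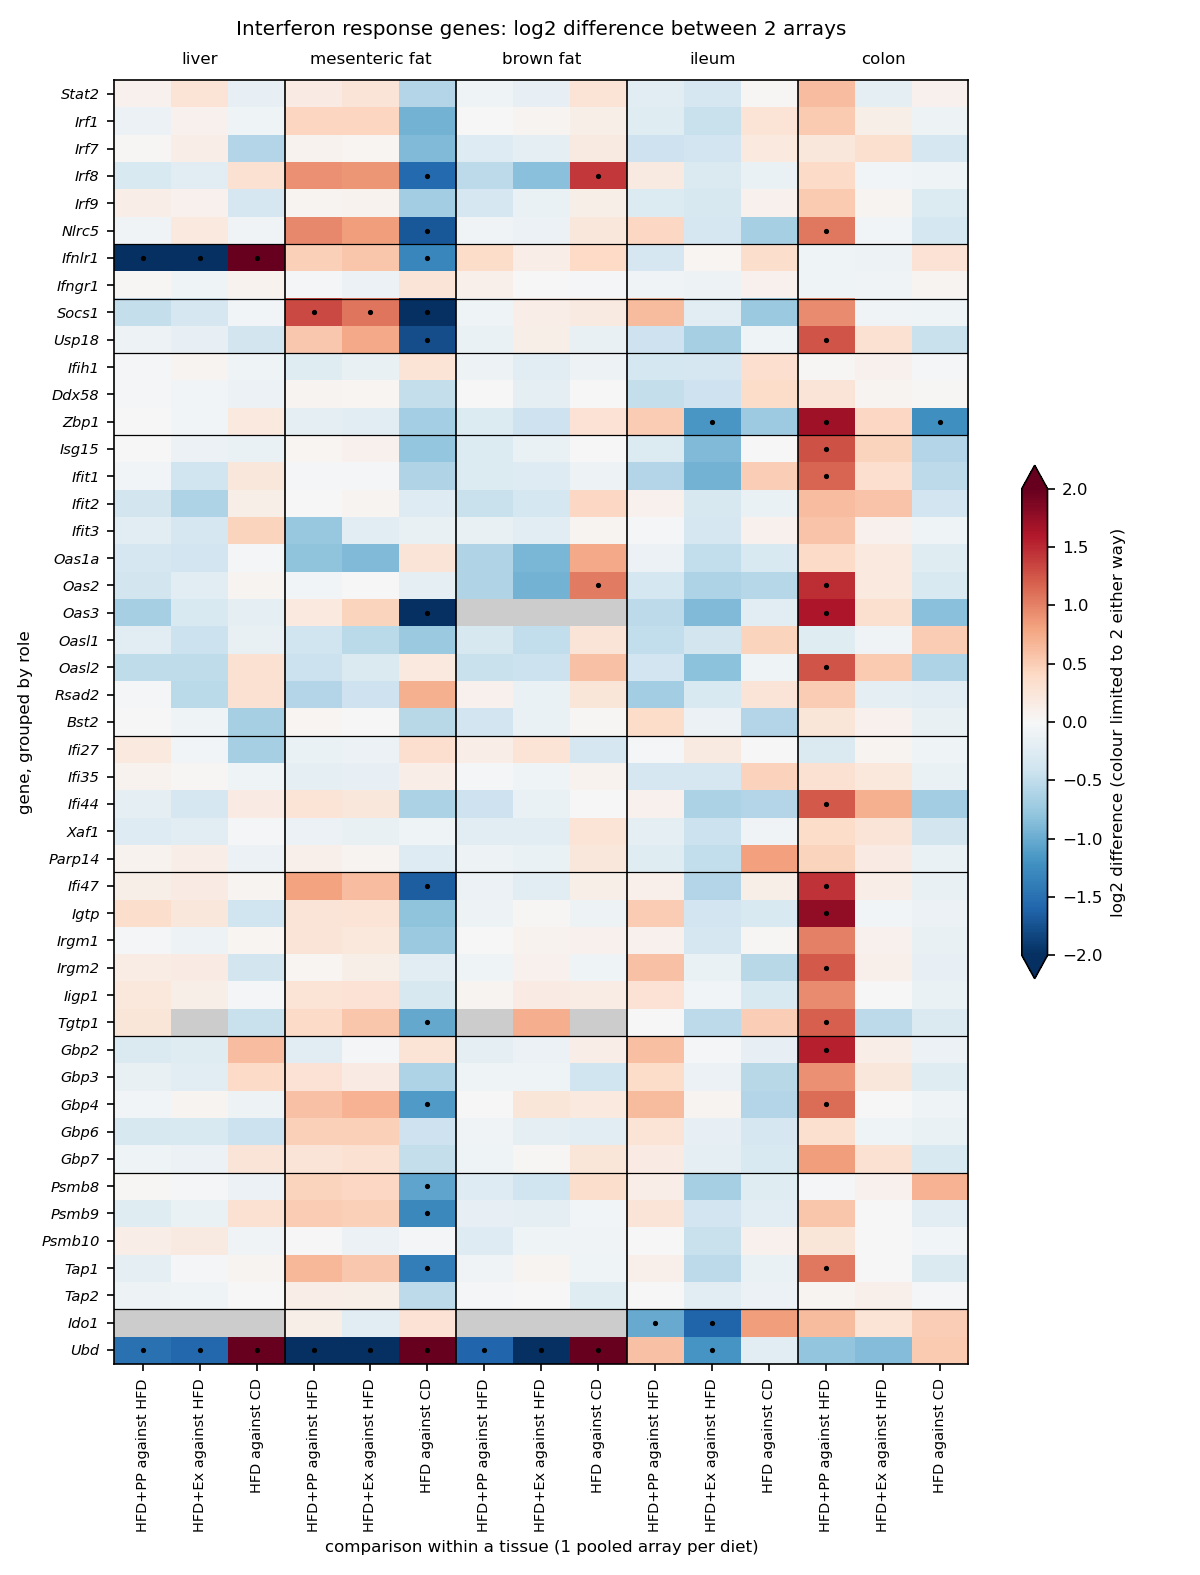
Log2 difference of the 47 members (y axis, grouped by role) in the 15 comparisons (x axis, grouped by tissue), red for higher and blue for lower on the array named first, with the colour limited at 2 log2 either way. Black dots mark calls of at least 1 log2, some of them bounds, and grey marks genes not measured. The colon column for HFD+PP against HFD holds 16 dots, the mesenteric fat column for HFD against CD 13, and Ubd has 10 across its line.

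The members differed most between the arrays of a tissue in the gut and mesenteric fat. The range over the 4 diets, taken for each member and then as the median over members, was 0.81 log2 in colon, 0.69 in mesenteric fat, 0.65 in ileum, 0.34 in liver and 0.32 in brown fat. No such range over all genes is given beside these, so they are not read as a trait of the members.

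The tissues differed more than the diets for many members. The colon arrays lay on a slide of their own. The liver arrays lay together on 1 slide and the ileum arrays on another, each shared with arrays of fat. Slide and tissue therefore cannot be fully told apart in the tissue counts and averages given here. In liver 8 of 47 members were higher on each of its 4 arrays than on any array of another tissue, against 14.2% of all genes. They were Stat2, Irf9, Usp18, Bst2 and the GTPases Igtp, Irgm1, Irgm2 and Iigp1. Mesenteric fat held 4 (Ifit2, Oas2, Tap2 and Ubd, against 6.31%) and ileum 3 (Ifnlr1, Oasl1 and Psmb10, against 5.4%). Colon held 3 (Ifngr1, Ifih1 and Oas1a, against 6.07%) and brown fat 2 (Rsad2 and Ifi27, against 15.4%). In liver, mesenteric fat, ileum and colon these counts lay near the share of all genes, so they mark no trait of the members. In brown fat the count lay below that share. Under normexp mesenteric fat held 7, and under quantile normalization mesenteric fat held 7, ileum 6 and brown fat 1. Brown fat was the lowest tissue on all its arrays for 12 members, against 6.31% of all genes, among them Irf1, Irf7, Irf9, Zbp1, Oas1a, Oasl1, Irgm1 and the proteasome subunits Psmb9 and Psmb10. Liver was lowest for Ifngr1 and Gbp2 (12.6% of all genes), colon for Ddx58 (3.87%), and mesenteric fat (6.98%) and ileum (7.22%) for no member. Ifnlr1, averaged over the 4 diets, had a level of 1.65 in ileum and 1.18 in colon, against −2.35 in mesenteric fat and −3.37 in brown fat. Ifi27, a mitochondrial protein that interferon induces, averaged 9.43 in brown fat, 7.06 in mesenteric fat, 6.67 in liver, 4.93 in colon and 4.68 in ileum. Ifngr1 averaged 5.15 in colon and 2.38 in liver, with the other 3 tissues between 4.35 and 4.77.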

How the data were processed

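Each of the 20 one-colour arrays held RNA of 1 tissue and 1 diet, pooled from 7 mice per the labels. Per the file headers, the authors' deposited files hold spot intensity from Agilent Feature Extraction 11.5.1.1 (protocol GE1_1105_Oct12), background-subtracted and detrended within the array, on a linear scale. The deposited series matrix also holds intensity, equal to that signal times 1 factor per array (log2 factors 0.916 to 1.65). Its scale is linear and not centred, and what the factor was set to is unknown. The medians of its columns, for HFD+PP, HFD+Ex, HFD and CD, were as follows. Liver had 54.3, 54.7, 53.5 and 54.8. Mesenteric fat had 102.3, 98.5, 87.9 and 103.6. Brown fat had 67.5, 71.8, 73.6 and 55.2. Ileum had 87.1, 91.6, 80.6 and 96.4. Colon had 86.4, 86.7, 84.6 and 92.6.

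Of 62976 spots, 3671 controls and 117 to 206 spots with an outlier flag per array were left out. Spots of a probe were averaged, and 28026 of 55681 probes were named through an accession in a RefSeq table of GRCm38.p6, giving 21154 genes, each read by its brightest probe. Levels are log2 intensity minus the 75th percentile of the array. Floors ran from −6.57 to −4.69 log2. The number of arrays, 1 per group, limits the precision. R 4.3.3 with limma 3.58.1 was used for normexp (offset 50). Python 3.11.15 with pandas 2.3.3 was used for the rest, including quantile normalization. Normexp used the median signal of a spot and its median background.

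The members, the roles, the pathway lists and the marker lists were chosen with earlier results of these data known. All members may be named. Values on every array are given for up to 5 members per tissue with the largest differences measured on both arrays and for a fixed set of regulators and effectors, and up to 4 changed genes per pathway list are named.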

Additional observations from a re-analysis of the deposited data

Results flagged for a closer look

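Between the HFD and CD arrays, 2 members differed in opposite directions in different tissues. On HFD against CD, Irf8 differed by 1.41 log2 in brown fat and by −1.56 in mesenteric fat, each measured on both arrays. Ifnlr1 was at least 3.6 log2 higher in liver, where it was well above background on the HFD array alone, and differed by −1.30 in mesenteric fat. With 1 array per tissue and diet, none of these differences was tested, within a tissue or between tissues. The part of diet and of cell content in them was not tested either.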

How the results depend on the processing

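No paired analysis was possible because each tissue and diet had 1 array. For the same reason slide could not be fitted as a block, and 3 of the 15 comparisons set arrays of different slides against each other. Under the 5 alternatives, 142 of 154 counts of members stayed within 1.5 times, 181 of 242 gene differences moved by less than the technical SD, and none of either reversed. Normexp background correction left 8 members higher in colon on HFD+PP against HFD, where 16 had passed, 0 higher in mesenteric fat on HFD+Ex and 0 lower in ileum on HFD+PP, both against HFD, and 7 highest in mesenteric fat. Under quantile normalization 3 members were higher in mesenteric fat on HFD+PP and 2 on HFD+Ex, 7 were highest in mesenteric fat, 6 in ileum and 1 in brown fat. With the authors' scaled values 2 were higher in mesenteric fat on HFD+PP, 3 lower in brown fat on HFD+Ex and 0 lower in ileum on HFD+PP. Requiring both arrays well above background left 1 higher in liver on HFD against CD and 1 lower on each supplement. Of 49 calls, 35 remained at 1 log2 under normexp and 48 under quantile normalization, the authors' values and the mean of all probes. The 6 members above each other colon array became 3 under normexp and 4 with the authors' values. The causes were not tested. Dim probes such as Oas3, Tgtp1, Ido1 and Ifng limit what can be read near background, and the technical SD was taken from probes well above it.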
